A study of Bos grunniens with 18 samples.

Results

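Spliceosome genes of the yak (Bos grunniens) epididymis were followed through maps of N6-methyladenosine (m6A), a methylated form of the adenosine base in messenger RNA. Members were all genes whose pathway annotation in the deposited gene table holds the Spliceosome entry, leaving out the HSPA heat shock genes and the m6A readers HNRNPA2B1 and HNRNPC. This rule gave 151 of 18467 gene identifiers, with 115 distinct symbols, and left out 6 identifiers that carry the same pathway entry. Members were chosen by annotation alone, with no measured value.

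The study used 6 healthy 4-year-old male yaks and divided the epididymis, the duct in which sperm mature, into its tail (cauda), body (corpus) and head (caput). Polyadenylated RNA was fragmented and enriched with an antibody against m6A, and 3 enriched (RIP) and 3 unenriched (input) libraries were sequenced for each of the 3 regions, 18 in all. No animal was treated, and the labels link no library to an animal and leave pooling unsaid. The m6A tables used here hold 1 list of candidate adenosines per region and 1 comparison per pair of regions, without values of single libraries, so the spread between replicates and the depth behind each site are unknown. The gene table also has 9 expression columns, which match no label and were not used here. In such whole-tissue RNA, a change in cell makeup and a change within cells cannot be told apart.

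The spliceosome removes introns from precursor messenger RNA and joins the exons. It is built from small nuclear ribonucleoproteins (snRNPs): the U1 snRNP recognises the start of an intron, the U2 snRNP its branch point, and the tri-snRNP of U4, U6 and U5 then joins before helicases and the PRP19 complex remodel the assembly into its active form. SR proteins and hnRNPs bind the transcript and influence which exons are used. The components are made in nearly all cell types, and their own messages can carry m6A.

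The site of a comparison is a whole peak, measured in bases of exon, whose span can cross introns. Of the 151 spliceosome genes, 97 had a site in at least 1 comparison (64.2%), against 9442 of the 18467 genes of the gene table (51.1%). The remaining 54 had none. Expression values were not used here, so the level of these genes' RNA does not stand beside this count.

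The members with a site were spread unevenly over the parts of the machine. Among proteins of the U4/U6.U5 tri-snRNP, 16 of 17 genes had a site, the exception being PPIH, a cyclophilin. Among the PRP19 complex and related proteins, 20 of 23 genes had one; BUD31, PRPF19, the ubiquitin ligase that names the complex, and 1 of 2 genes called WBP11 had none. Of the ATP-dependent helicases, 5 of 6 had a site (DDX39B had none), and of the U1 snRNP and its partners 7 of 9. Among the U2 snRNP, the SF3 complexes and their partners the count was 16 of 23.

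At the other end stood the Sm and LSm proteins, the small subunits that form rings around the snRNAs, with a site in 7 of 28 genes. Counted by symbol, 7 of 15 had a site: LSM3, LSM4, LSM5, LSM6, LSM8, Snrpd2 and snrpd3. No site was listed for any gene called SNRPB, SNRPD1, SmD1, SNRPE, SNRPF, Snrpg, LSM2 or LSM7. Exon junction and export proteins had a site in 7 of 12 genes and hnRNPs and related proteins in 10 of 19. For SR and related proteins the count was 8 of 13, with SRSF2, SRSF3, SRSF7 and SRSF9 among those without a site. RP9 was given no role, and it had a site.

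Many of the members without a site are copies. The annotation gives 20 symbols to more than 1 member, 56 genes in all, of which 18 had a site. Of the 95 members with a symbol of their own, 79 had one. By symbol, 94 of 115 were represented (81.7%), and all 8 hnRNP symbols were. Copies with near-identical sequence can share reads, so which of 6 genes called HNRNPA1 or 5 called Hnrnpa3 a read came from is uncertain.

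**Figure D1:**
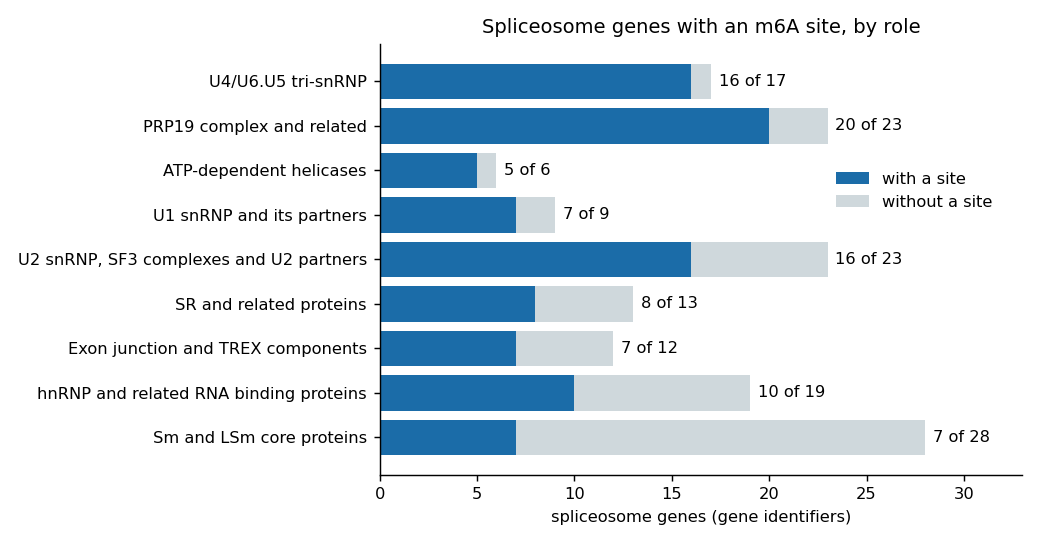
Number of spliceosome gene identifiers with (blue) and without (grey) an m6A site in at least 1 comparison, by role, from the role with the highest share at the top. The tri-snRNP stands at 16 of 17 genes and the Sm and LSm proteins at 7 of 28.

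Spliceosome genes with a site carried about as many sites each as other genes. In the comparison of corpus and caput, 87 member genes had 152 sites, a mean of 1.747 per gene, against 1.745 over all 7973 genes. ACIN1, an RNA-binding apoptosis and splicing factor, had the most, with 5 or 6 sites depending on the comparison. The sites themselves differed in build: 84.2% of spliceosome sites had a span longer than their exon length and so crossed at least 1 intron, against 58.1% of all sites in that comparison. The shares were 82.2% and 57.8% for cauda over caput, and 81.3% and 58.0% for cauda over corpus. The median exon length of these sites was 298 bases, against 251 bases over all sites, in the comparison of corpus and caput, and the median span was 2408 bases, against 987. A spliced site joins bases that lie far apart in the genome, so its coordinates bracket introns; starts and ends are given counting from 1 in the authors' coordinates (genome build not given in the sources used here).

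The candidate lists name single adenosines within peaks, each with a prediction score, and sort them into a non-m6A class and m6A classes from low up to very high confidence. A score belongs to the sequence position and not to a region (among positions shared by caput and corpus, caput and cauda, or corpus and cauda, 0 differed in score or class), so a region's list shows where its peaks lay and not how strongly they were methylated. Spliceosome genes held 909 candidate positions in the caput list, 898 in the corpus list and 943 in the cauda list, counting positions in the span of 1 gene. Together these were 1118 positions in 90 genes.

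A smaller share of these positions was classed as m6A sites than of other genes' positions. In the caput list 13.5% were classed (95% Wilson interval 11.5 to 15.9), in that of the corpus 15.3% (13.1 to 17.8) and in that of the cauda 15.5% (13.3 to 17.9). For positions of other genes it was 19.3% (19.0 to 19.5), 19.4% (19.1 to 19.7) and 19.3% (19.0 to 19.5) in the same order. The intervals of spliceosome and other genes did not overlap in any of the 3 lists. They cover counting error only, positions of a gene are not independent, and the 3 lists share most positions, so they are not 3 separate observations. The very high confidence class held 10 of the 1118 spliceosome positions (0.894%, 0.487 to 1.64), against 2.004% of other genes' positions (1.93 to 2.08).

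Peaks of spliceosome genes recurred from region to region. Of 1118 positions, 694 were listed in all 3 regions (62.1%, 59.2 to 64.9), against 52.6% (52.3 to 52.9) of other genes' positions. Of the 132 member peaks in the corpus list, 116 overlapped a peak of both other regions (87.9%) and 3 overlapped none, where 69.6% of all 13798 corpus peaks overlapped both. The corresponding counts were 115 of 138 member peaks in the caput (83.3%, all peaks 66.2%) and 115 of 141 in the cauda (81.6%, all peaks 67.3%). An overlap of 1 base was enough, and longer spans can meet more often. Sites of spliceosome genes had the longer spans, with a median of 2408 bases against 987 for corpus over caput. The part of span in these shares was not tested. At the level of genes, 76 of 90 members were listed in all 3 regions (84.4%), against 6109 of all 8740 genes with candidates (69.9%). For genes with classed positions the shares were closer, at 46 of 66 members (69.7%) and 3992 of all 6259 genes (63.8%).

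SNRPB2, a U2 snRNP protein that binds U2 RNA, held the most classed adenosines. Its list held 34 candidates in the corpus and 33 in the cauda, with 14 classed as m6A sites in each, but 1 candidate and 0 classed in the caput. On chromosome 12, 33 of the corpus candidates lay between 80535355 and 80536760, a stretch of 1406 bases. The gene's site in the comparison of cauda and corpus counts 294 exon bases over a longer span, and how many of these candidates lie within the counted bases was not tested. Its sites were not called: the authors' deposited table gives log2 folds of 0.066 (corpus over caput, adjusted p-value 1), 0.11 (cauda over caput, adjusted p-value 0.88) and -0.14 (cauda over corpus, adjusted p-value 0.99). The site of corpus over caput runs from 80526900 to 80529251 and held 1 candidate in each list. It ends before the stretch of 1406 bases, so its fold does not compare that stretch.

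The other genes with the most classed positions had some in every region. THOC2, a subunit of the THO complex that couples splicing to export, had 31 candidates, 9 of them classed, in each of the 3 lists. PRPF4, a U4/U6 protein, had 8 classed positions in each list, among 22, 19 and 25 candidates in caput, corpus and cauda.

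Among U2 components, DDX46, a helicase that acts with the U2 snRNP, had 5 classed positions in each list, and SF3B1, the branch-point-binding core of SF3b, had 4 in each. SF3A3, of the SF3a complex, had 4, 4 and 3 in caput, corpus and cauda. In the same order, PRPF3 of the U4/U6 snRNP had 5, 4 and 6, and HNRNPU, an RNA-binding nuclear scaffold protein, had 5, 2 and 5. Rbm25, which contacts the U1 snRNP, had 3, 3 and 4. CDC5L and CCDC12, described below, had 0 classed positions in any list, although CDC5L had 17, 20 and 17 candidates.

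**Figure D2:**
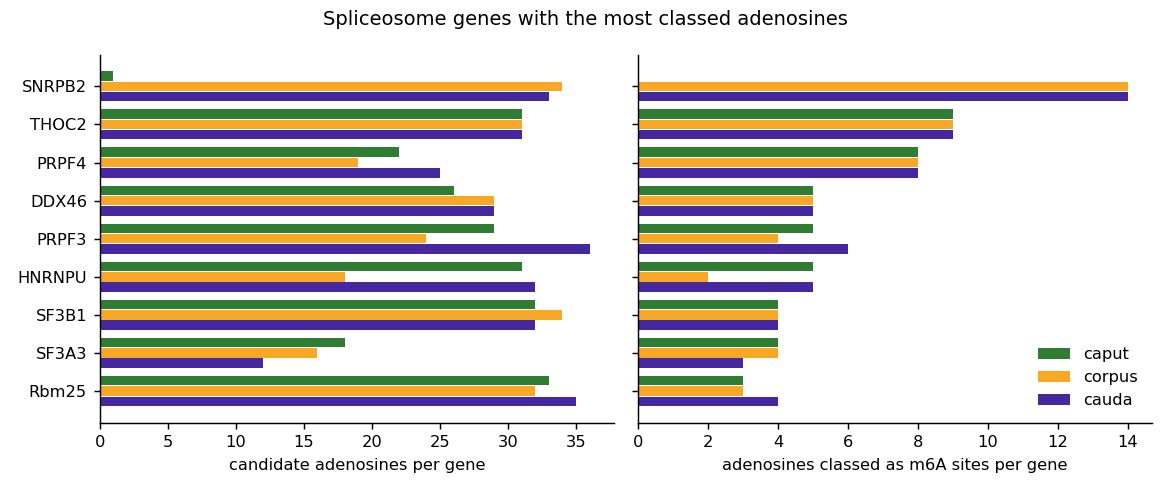
Candidate adenosines (left) and adenosines classed as m6A sites (right) per gene in the caput, corpus and cauda lists, for 9 of the 10 spliceosome genes with the most classed positions summed over the lists. SNRPB2 has 1 candidate in the caput against 34 in the corpus and 33 in the cauda; among the other genes shown, the classed counts differ most for HNRNPU, with 5 in the caput, 2 in the corpus and 5 in the cauda.

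Very high confidence positions in all 3 regions were found in 6 spliceosome genes. The highest score, 0.793, was that of HNRNPM, an hnRNP, at position 17807965 of chromosome 8. Prpf38b followed with 0.761 at position 37641801 of chromosome 3. PCBP1, a poly(C)-binding protein, had 0.703 at position 92419688 of chromosome 9, and ZMAT2, a zinc finger protein of the tri-snRNP, 0.697 at position 56347637 of chromosome 8. PRPF4 carried 2 such positions, the higher with 0.69 at position 40782811 of chromosome 7. The HNRNPA1 gene with a site in every comparison had 0.68 at position 82009437 of chromosome 5.

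Candidates in a single region were listed for 8 members. They were in the cauda for PPIL1 (7 positions), a cyclophilin of the active spliceosome, 1 copy of Hnrnpa3 (4), TXNL4A of the U5 snRNP (3), SNU13 (2) and SNRNP40 of the U5 snRNP (1). They were in the caput for PRPF8 (6), the scaffold at the catalytic centre, and PLRG1 of the PRP19 complex (4), and in the corpus for LSM8 (3), which defines the nuclear ring on U6. A listing is not a measured difference. Apart from those of SNU13, the sites of these genes were not called in any comparison. For PRPF8 the site with the caput candidates had a log2 fold of -0.23 for corpus over caput (250 exon bases, adjusted p-value 0.63) according to the authors' deposited table. A longer site that covers it had 0.010 for cauda over caput (399 exon bases, adjusted p-value 0.95) according to the authors' deposited table. PPIL1 had 0.14 for cauda over caput (adjusted p-value 0.35) according to the authors' deposited table.

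For genes with several separate sites, their order along the transcript could be read from the strand. Of 43 spliceosome genes with more than 1 separate site and at least 1 classed position, 18 had most classed positions in the most downstream site (41.9%) and 10 in the most upstream one (23.3%). Over all 3773 such genes the shares were 38.7% and 29.7%. Transcript models were not used here, so a most downstream site need not lie near a stop codon.

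Folds between regions were small for spliceosome sites. A call below means the authors' adjusted p under 0.05, and folds are the first-named over the second-named region. In the authors' deposited table the median absolute log2 fold of spliceosome sites was 0.105 for corpus over caput (all sites 0.20), 0.12 for cauda over caput (all sites 0.21) and 0.099 for cauda over corpus (all sites 0.20). Differences of at least 2-fold were listed for 0 of 152, 0 of 146 and 2 of 150 spliceosome sites in that order, against 2.67%, 2.45% and 2.37% of all sites of the authors' deposited table. Of the spliceosome sites of corpus over caput, 78 had a positive and 74 a negative fold, and in the other comparisons the counts were 78 and 68 (cauda over caput) and 80 and 70 (cauda over corpus). The medians of the signed log2 folds were 0.0068, 0.020 and 0.029, beside -0.020, 0.043 and 0.046 over all sites, in the same order of comparisons. No test of the list was made.

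**Figure D3:**
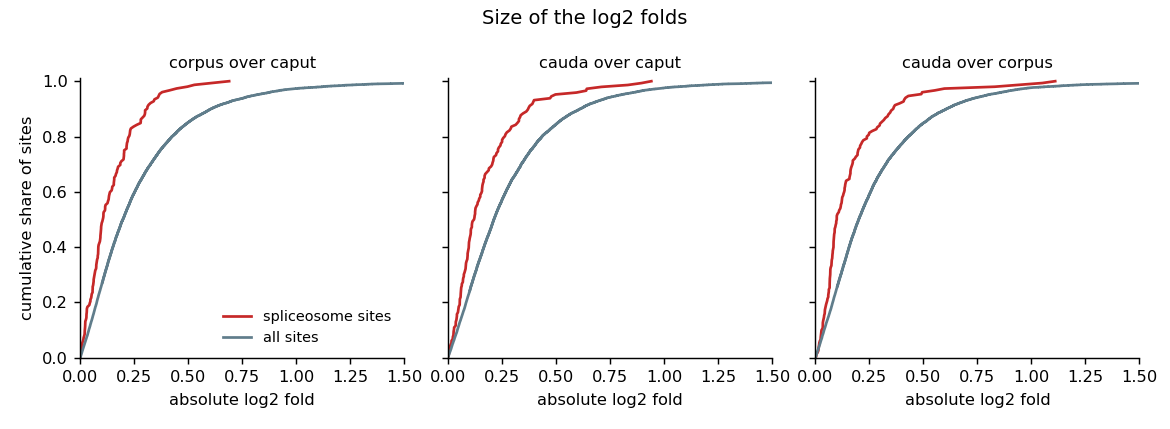
Cumulative share of sites (vertical axis) against the absolute log2 fold in the authors' tables (horizontal axis, shown up to 1.5) for spliceosome sites (red) and all sites (grey) in each comparison. The red curves rise earlier, with medians of 0.105, 0.12 and 0.099 against 0.20, 0.21 and 0.20.

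The folds of the 3 tables close on each other where the site is the same. For 34 spliceosome sites of 27 genes with an identical span in all 3 tables, the log2 folds of corpus over caput and cauda over corpus added up to that of cauda over caput within a median of 0.0033 and at most 0.035. Log2 ratios of the same 3 levels add up in this way by arithmetic, so small residuals do not measure the noise of a called fold. The called sites of SNU13 for corpus over caput and DDX23 for cauda over caput had log2 folds smaller than the largest residual. For the same reason that residual is no yardstick for these calls. SNU13 had no identical span in all 3 comparisons and is not among the 34 sites. The closure does not measure the spread between animals. Each pair of comparisons shares a region, so their folds are not independent.

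**Figure D4:**
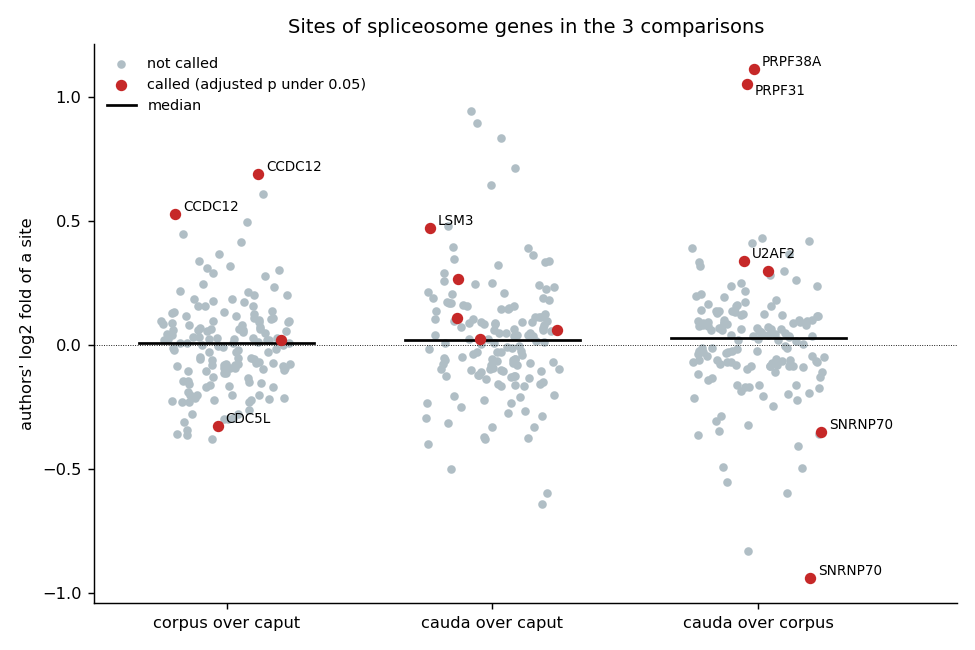
The authors' log2 fold (vertical axis) of each spliceosome site in the 3 comparisons, with called sites in red and the median as a black line; horizontal scatter within a column carries no value. Most points lie within 0.5 of 0, and the called sites reach from -0.94 (SNRNP70) to 1.11 (PRPF38A), both in cauda over corpus.

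In the corpus against the caput, 4 of 152 spliceosome sites were called, 3 higher and 1 lower, beside 2.98% of all sites (1.12% higher, 1.86% lower). The share of spliceosome sites, 2.63%, is near that background, and the count is no result about these genes. Both sites of CCDC12, a protein of the PRP19-related group, were higher in the corpus. The one on chromosome 22 from 9459335 to 9460669 (minus strand, 240 exon bases) had a log2 fold of 0.69 (adjusted p-value 0.048), and the one from 9460860 to 9499295 (336 exon bases) a log2 fold of 0.53 (adjusted p-value 0.0071) according to the authors' deposited table. The same spans were not called elsewhere: cauda over caput was 0.21 and 0.17 (adjusted p-value 0.48 and 0.27), and cauda over corpus -0.49 and -0.36 (adjusted p-value 0.56 and 0.22), according to the authors' deposited table. These sites held 1 or 0 candidates in each region, none classed as an m6A site.

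CDC5L, a core subunit of the PRP19 complex, had a site of 944 exon bases on chromosome 24 from 17450208 to 17464436 (minus strand) that was lower in the corpus, with a log2 fold of -0.325 (adjusted p-value 0.042), according to the authors' deposited table. It had 7 candidates in the corpus list and 8 in the caput list. SNU13, a small protein that binds U4 RNA, had a called site on chromosome 5 from 121152141 to 121162123 with a log2 fold of 0.020 (adjusted p-value 0.029) according to the authors' deposited table. This is a ratio of 1.014 according to the authors' deposited table, so a low p stands beside almost no fold. The SNU13 site held 0 candidates in the corpus list and 0 in the caput list. Over all sites of this comparison, 18 of 419 called sites (4.30%) had an absolute log2 fold under 0.1.

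Other spliceosome sites had an unadjusted p under 0.05 and were not called. With the called ones there were 19 such sites (10 positive, 9 negative), beside 16.4% of all sites (7.21% positive, 9.24% negative). SNW1, a factor of the active spliceosome, had a log2 fold of 0.31 (adjusted p-value 0.052) and DDX46 one of 0.30 (adjusted p-value 0.19) according to the authors' deposited table. The SNW1 site overlaps a site of SLIRP, so its reads may not be separated from those of SLIRP. On the negative side stood PRPF18, a factor of the second catalytic step (-0.36, adjusted p-value 0.34), SF3B3 of the SF3b complex (-0.36, adjusted p-value 0.31), U2AF2 (-0.30, adjusted p-value 0.078) and CTNNBL1 of the PRP19 complex (-0.28, adjusted p-value 0.21) according to the authors' deposited table. Of the 9 negative sites with an unadjusted p under 0.05, 6 belonged to the U2 and SF3 group, among them the U2AF2 sites from 51295060 and from 51306423. The 30 sites of this group had a median log2 fold of -0.031 according to the authors' deposited table. In cauda over caput and in cauda over corpus the group had 4 positive and 1 negative site at an unadjusted p under 0.05. This grouping was noticed after the values were seen and was not tested.

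In the cauda against the caput, the ends of the duct, 5 of 146 spliceosome sites were called, all higher in the cauda, beside 2.27% of all sites called (1.41% higher, 0.861% lower). Most of the folds were small. LSM3, a subunit of the LSm ring on U6, had the largest, 0.47 (adjusted p-value 0.026), at a site of 243 bases on chromosome 22 from 3194716 to 3194958 (plus strand) according to the authors' deposited table. Within it, the cauda list held 3 candidates and the caput list 0. The other LSM3 site, from 3187011 to 3193211, had -0.097 according to the authors' deposited table and was not called. Crnkl1, a scaffold of the PRP19-related group, was higher in the cauda, with a log2 fold of 0.26 (adjusted p-value 0.020) on chromosome 12 from 31050398 to 31054089 (minus strand) according to the authors' deposited table.

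The remaining 3 called sites had log2 folds near 0.1 or below. SNW1 had 0.11 (adjusted p-value 0.015) on chromosome 11 from 79756958 to 79768223 according to the authors' deposited table. Counting positions in the span of 1 gene, that site held 0 candidates in each list. This SNW1 site overlaps a site of SLIRP, so reads of the 2 genes may not be separated, and without sites that overlap another gene's the count of called sites was 4. SNU13 had 0.061 (adjusted p-value 0.0013) and DDX23, the helicase that displaces U1 from the intron start, 0.023 (adjusted p-value 0.016) according to the authors' deposited table. The DDX23 site spans chromosome 5 from 76463135 to 76463631 and holds 10 candidates in the cauda list and 6 in the caput list. With a minimum of 1.5-fold, 0 of the 146 sites were called, while 28 had an unadjusted p under 0.05 in the authors' test (21 positive, 7 negative), beside 17.2% of all sites (10.5% positive, 6.68% negative).

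Among sites with an unadjusted p under 0.05, the largest positive log2 folds were those of SLU7, a factor of the second catalytic step (0.94, adjusted p-value 0.33), PRPF31 (0.90, adjusted p-value 0.35), DHX38, the helicase that acts before that step (0.83, adjusted p-value 0.34), and PRPF4 (0.64, adjusted p-value 0.26) according to the authors' deposited table. The most negative were PRPF18 (-0.64, adjusted p-value 0.31), THOC1 of the THO complex (-0.595, adjusted p-value 0.27), SNRNP70 (-0.40, adjusted p-value 0.18), SMNDC1, a splicing factor related to SMN (-0.37, adjusted p-value 0.14), and Prpf38b (-0.31, adjusted p-value 0.16) according to the authors' deposited table. These were larger folds than those of the called sites other than LSM3, without passing the adjusted threshold.

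In the cauda against the corpus, the distal duct, 6 of 150 spliceosome sites were called, 4 higher and 2 lower in the cauda, beside 1.96% of all sites (1.24% higher, 0.719% lower). This comparison held the largest folds among these genes. PRPF38A, which enters with the tri-snRNP, was higher in the cauda, with a log2 fold of 1.11, a ratio of 2.16 (adjusted p-value 0.010), at a site of 150 exon bases on chromosome 3 from 102273575 to 102275234 (minus strand) according to the authors' deposited table. Its 1 candidate was listed in the cauda and classed as an m6A site. The same span had 0.48 for cauda over caput (adjusted p-value 0.49) according to the authors' deposited table.

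PRPF31, which locks the U4/U6 snRNP into the tri-snRNP and is known as a retinitis pigmentosa gene in humans, was higher in the cauda, with a log2 fold of 1.05 (adjusted p-value 0.0056) on chromosome 20 from 52729472 to 52730858 (minus strand) according to the authors' deposited table. This span held 2 candidates in the cauda list and 2 in the corpus list, with 0 classed as m6A sites. A shorter site within this span had 0.0016 for corpus over caput (adjusted p-value 0.33) and 0.90 for cauda over caput (adjusted p-value 0.35) according to the authors' deposited table. The other PRPF31 sites of cauda over corpus had -0.13 and -0.17 (adjusted p-value 0.74 and 0.40) according to the authors' deposited table. The difference between the sites of this gene, 1.22 on the log2 scale, was the widest within any spliceosome gene in this comparison.

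SNRNP70, the U1 protein that binds the first stem loop of U1 RNA, carried the lower sites. They lie on chromosome 20, minus strand. The site from 59553612 to 59562056 (149 exon bases) had a log2 fold of -0.94, a ratio of 0.522 (adjusted p-value 0.0034), and that from 59545653 to 59552866 (296 exon bases) a log2 fold of -0.35 (adjusted p-value 0.0025) according to the authors' deposited table. The third, from 59543935 to 59544377, had -0.017 (adjusted p-value 0.97) according to the authors' deposited table. In the corpus over caput table a single site covers both called spans and had 0.094 (adjusted p-value 0.56) according to the authors' deposited table, with 5 candidates in the corpus list and 1 in the caput list. The cauda list held 0 candidates in that span.

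U2AF2, the large subunit of the factor that binds the polypyrimidine tract, had a site of 198 bases on chromosome 20 from 51306423 to 51306620 (minus strand) that was higher in the cauda by 0.34 (adjusted p-value 0.044) according to the authors' deposited table. The same site had -0.30 for corpus over caput (adjusted p-value 0.078) according to the authors' deposited table. U2SURP, a U2-associated protein, was higher by 0.30 (adjusted p-value 0.040) on chromosome 1 from 137136670 to 137147715 according to the authors' deposited table, and the same span had 0.059 for cauda over caput (adjusted p-value 0.83).

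The other named sites of cauda over corpus had an unadjusted p under 0.05 without being called, among 24 such sites (15 positive, 9 negative) beside 16.4% of all sites (9.71% positive, 6.68% negative). SNRNP200, the helicase that unwinds U4 from U6, had -0.55 (adjusted p-value 0.18), CCDC12 the -0.36 given above, and EFTUD2, the GTPase of the U5 snRNP, -0.29 (adjusted p-value 0.33) according to the authors' deposited table. Positive log2 folds were those of Rbm22, an RNA-binding protein of the PRP19-related group (0.43, adjusted p-value 0.18), and BCAS2 of the PRP19 complex (0.42, adjusted p-value 0.14) according to the authors' deposited table.

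**Figure D5:**
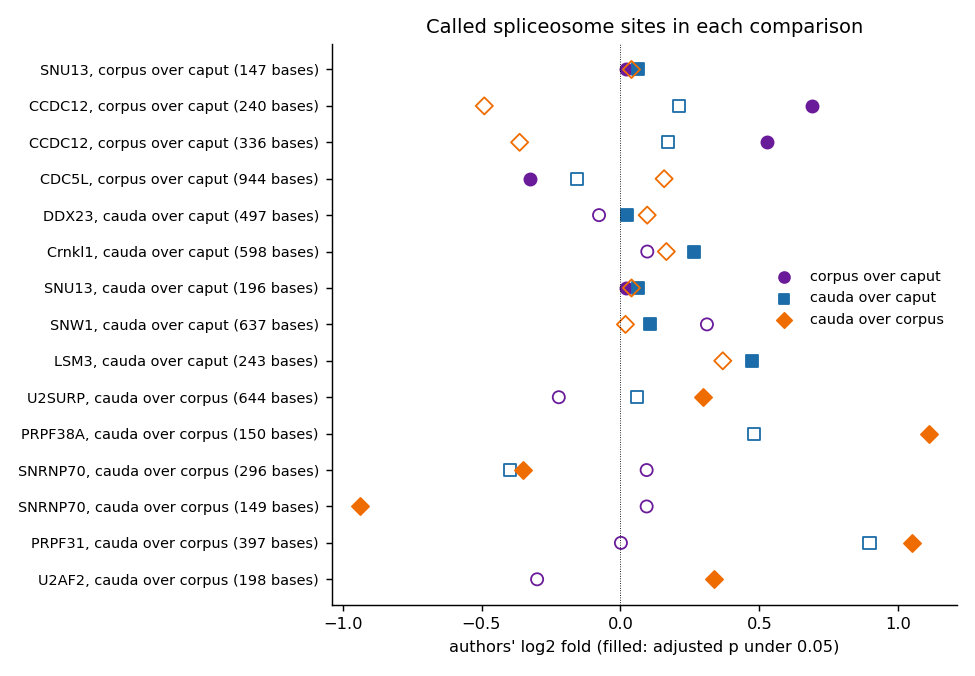
The authors' log2 fold (horizontal axis) of each called spliceosome site, named with its comparison and exon length, and of the overlapping site of the same gene in the other comparisons; filled symbols have an adjusted p under 0.05. CCDC12 is positive for corpus over caput and negative for cauda over corpus, while both SNRNP70 sites are negative for cauda over corpus; LSM3, PRPF38A and U2AF2 have no overlapping site in 1 of the tables, and neither has the shorter SNRNP70 site.

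By role, the calls were scattered. Summed over the comparisons, they fell on the PRP19-related group (4 higher, 1 lower), the tri-snRNP (5 higher), the U2 and SF3 group (2 higher), the U1 group (2 lower) and the Sm and LSm proteins (1 higher). Comparisons share regions, so the sums are not of separate observations. For the tri-snRNP they count SNU13 in both comparisons with the caput, with log2 folds of 0.020 and 0.061, and DDX23 with 0.023. CCDC12 was not in the list planned for the PRP19-related group. Nor were U2AF1L5 and SmD1 in the lists planned for the U2 and SF3 group and the Sm and LSm proteins. Sites of SR proteins (10, 12 and 10 in the 3 comparisons), hnRNPs (10, 14 and 17), exon junction and export proteins (11, 9 and 9) and the helicases counted apart from the snRNPs (9, 10 and 8) had 0 calls in the authors' test. Of all sites, 2.98% (corpus over caput), 2.27% (for cauda over caput) and 1.96% (for cauda over corpus) were called. At an unadjusted p under 0.05 these same 4 groups had 0 of 40, 7 of 45 and 5 of 44 sites in that order, beside 16.4%, 17.2% and 16.4% of all sites. The groups were put together for having 0 calls, a choice that lowers these counts in advance. The counts are therefore no result about the groups. Among SR proteins the log2 folds reached from -0.30 to 0.14 for corpus over caput according to the authors' deposited table.

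Genes of splicing outside this pathway entry were read in the same way. Of 51 listed splicing regulators, such as kinases of SR proteins and tissue-specific factors, 45 had a site, beside 51.1% of all genes of the gene table. At an unadjusted p under 0.05 there were 10, 12 and 8 of their sites in the 3 comparisons, beside 16.4%, 17.2% and 16.4% of all sites. Called were 1 of 79, 1 of 73 and 0 of 78 sites, beside 2.98%, 2.27% and 1.96% of all sites. The calls were the same site of SRPK1, an SR protein kinase, on chromosome 24 from 26549819 to 26591614, lower in the corpus by -0.41 (adjusted p-value 0.0093) and in the cauda by -0.18 (adjusted p-value 0.034) relative to the caput according to the authors' deposited table. The median absolute log2 fold of these regulators was 0.105, 0.128 and 0.1335 according to the authors' deposited table. Of 14 genes of the minor spliceosome, which removes a rare class of introns, 12 had a site, and 0 of 15, 0 of 15 and 1 of 15 sites were called (2, 2 and 3 at an unadjusted p under 0.05). Their median absolute log2 fold was 0.171, 0.28 and 0.244 according to the authors' deposited table, beside 0.197, 0.213 and 0.20 over all sites. The call was SCNM1, higher in the cauda than in the corpus by 0.24 (adjusted p-value 0.030) according to the authors' deposited table.

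Markers of the cells in the tissue were read in the same tables, as sites and not as expression. A site was listed for 6 of 10 secretory, 5 of 5 clear and narrow cell, 5 of 5 multiciliated, 5 of 7 sperm and spermatid, 5 of 5 smooth muscle and 4 of 5 leukocyte genes. Sites of genes of clear and narrow cells were called lower in the corpus than in the caput in 4 of 8 cases, with 0 called higher, and those of sperm and spermatid genes in 4 of 9 cases, with 0 called higher. Multiciliated cell genes had 3 sites lower and 1 higher among 4, secretory genes 2 lower among 15, leukocyte genes 1 higher among 9, and smooth muscle genes 0 called among 11 (1 at an unadjusted p under 0.05). For cauda over caput, secretory genes had 2 sites higher and 4 lower among 9, multiciliated genes 2 lower among 7 and clear cell genes 1 lower among 5, while 0 of 9 sperm, 0 of 7 smooth muscle and 0 of 9 leukocyte sites were called (3, 1 and 1 at an unadjusted p under 0.05). For cauda over corpus the calls were 1 higher and 3 lower among 7 secretory, 1 higher among 3 multiciliated and 1 higher among 3 sperm sites, with 0 among 3 clear cell, 11 smooth muscle and 9 leukocyte sites (1, 0 and 1 at an unadjusted p under 0.05). Of all sites, 1.12% were called higher and 1.86% lower for corpus over caput. The shares were 1.41% and 0.861% for cauda over caput, and 1.24% and 0.719% for cauda over corpus. At an unadjusted p under 0.05, in either direction, they were 16.4%, 17.2% and 16.4% in that order. Of all genes of the gene table, 51.1% had a site. The part of these cells in the folds of spliceosome sites was not tested.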

How the data were processed

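Per the submitters' processing notes, Trimmomatic, HISAT2 and deepTools were used, without versions. Not given in the sources used here are the genome build, the site predictor, the peak caller and the test between regions. The authors deposited, per region, a prediction score for each candidate adenosine. Per the file headers, the deposited comparison tables give a p-value, an adjusted p-value, a ratio (fold), its log2 value and a length per site. Whether folds are relative to input is not given. Folds divide the first-named region by the second: unspliced sites with candidates in the first region alone had positive median deposited log2 folds (0.316, 0.39 and 0.395), and those in the second alone negative ones (-0.375, -0.27 and -0.30).

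The 9 expression columns of the gene table match no label and were not used, so the planned expression test was not run; symbols and pathways were taken from it. Repeated lines were reduced to 1 per position with its highest score. Positions were assigned to genes by site spans (intervaltree 3.1.0); shares have Wilson intervals (statsmodels 0.14.6). Deposited starts count from 0 and were raised by 1. The assignment and intervals were tested on simulated data. The authors' tables were read with no further test; the list was described by counts and medians.

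Named sites are, per comparison, those with the authors' adjusted p under 0.05 and, at an unadjusted p under 0.05, the 5 sites at either end of the log2 folds; named genes are the 10 with the most classed positions, those with very high confidence positions in all regions and those listed in 1 region; 1 site and 1 gene that this rule names are not reported here. SNRPB2's positions, PPIH and other members without a site, and overlaps were described after values were seen. Members and lists were chosen with earlier results of these data known.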

Additional observations from a re-analysis of the deposited data

How the results depend on the processing

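At an unadjusted p under 0.05, 19 spliceosome sites passed for corpus over caput, 28 for cauda over caput and 24 for cauda over corpus; at an adjusted p under 0.1 the count for cauda over caput was 8. With at least 1.5-fold as well, 1, 0 and 3 sites passed in the same order, because 11 of the 15 called sites are smaller than that. Counting adenosines of high confidence and above gave shares of 4.40% in the caput, 4.34% in the corpus and 4.98% in the cauda, by construction a stricter class. Requiring classed candidates left 46 of 66 genes listed in all 3 regions (69.7%, all genes 63.8%). Of the remaining values, 35 counts, shares and medians of the list stayed within the limits set, among them all genes of the pathway entry, sites with a p listed as 0 (there were none among the members), the median over genes, shorter sites and positions in any member span. The median for corpus over caput, not tested and near 0, was -0.047 when taken over genes at the site with the lowest p, beside 0.0068 over sites. Added after seeing the data were Benjamini-Hochberg adjustment over the deposited sites, leaving out overlapping sites, symbols with copies, called sites or SNRPB2, which moved no share, count or median beyond those limits; without SNRPB2 the classed share was 14.2% in the corpus and 14.5% in the cauda. No paired analysis was possible because the m6A tables carry no values per library and the expression columns match no label. Other settings of an expression test (pseudocount, filter on low values, replicate block and leaving out each library) were not run for the same reason. The depth behind a site is unknown.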
